A study of Homo sapiens with 18 samples.

Results

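The type I interferon genes of chromosome 9p were examined in U937 cells, a long-established human myeloid line that the labels give as AML (acute myeloid leukaemia). The 10 genes described here were taken from a list: IFNB1, IFNW1, IFNE and the alpha genes IFNA1, IFNA2, IFNA5, IFNA6, IFNA8, IFNA14 and IFNA21. They are 10 of 19974 protein-coding genes on chromosomes 1 to 22 and X, and all 10 were found in the RefSeq annotation of GRCh38.p14. The span between the outermost of them, from IFNB1 to IFNE, is chr9:21077104-21482313, a length of 405 kb. It holds 17 protein-coding genes, the 10 listed ones and the 7 genes IFNA4, IFNA7, IFNA10, IFNA13, IFNA16, IFNA17 and KLHL9. The listed genes are 570 to 1475 bp long, about the size of 1 or 2 units of the 800 bp grid on which domains were called, so the whole span and 1 Mb on either side of it are described as well.

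Chromatin immunoprecipitation and sequencing (ChIP-seq) maps were made for H3K9me3, a histone mark of heterochromatin, and for H3K27me3, the mark set by Polycomb complexes. Each mark was profiled in U937 cells knocked out for SUV39H1 (SKO), in cells knocked out for both SUV39H1 and SUV39H2 (DKO) and in cells with a control guide (sgControl), with 2 libraries per genotype and mark. Wild-type (WT) U937 cells gave 2 SETDB1 libraries. No treatment is named in the labels. Reads inside domains, in units of 1000000 reads (M), numbered 16.5 to 23.6 M per H3K9me3 library and 47.9 to 70.7 M per H3K27me3 library. Myeloid genes such as SPI1, CEBPA and MPO carried neither mark in any of the 6 libraries, and the lists hold no expression that could check the cell type or the knockouts further. The sources used here do not say whether the knockout lines are clones or pools, or whether libraries of 1 genotype are from separate cultures, and their spread may be technical.

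Type I interferons are secreted proteins that cells release on sensing viral or other foreign nucleic acid. All of them bind the same receptor, made of IFNAR1 and IFNAR2, which signals through JAK kinases. IFNB1 (interferon beta) is usually induced early, through a promoter that binds IRF and NF-kappaB factors together. The IFNA genes encode the subtypes of interferon alpha, IFNW1 encodes interferon omega, and IFNE encodes interferon epsilon, known best from the female reproductive tract. SUV39H1, SUV39H2 and SETDB1 are all methyltransferases of H3K9.

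Promoters are shown for 3 of the genes because they differ in where H3K9me3 domains lay: IFNB1, whose promoter was inside a domain in 3 of the 4 knockout libraries, IFNA21, which lay at the edge of one, and IFNA8, which was far from any in all 6 libraries. RefSeq promoter sequences of GRCh38.p14 matched 8 of the 10 genes. IFNW1 and IFNA6 were not matched. Each sequence is the 250 bases before the gene's start, 5′ to 3′ on the gene's own strand. Capitals mark matches, on either strand, to AANNGAAA, the core spacing bound by IRF factors, and to GGGANNTTC, the first 9 letters of a common NF-kappaB form.
IFNB1, chr9:21077943-21078192, minus strand: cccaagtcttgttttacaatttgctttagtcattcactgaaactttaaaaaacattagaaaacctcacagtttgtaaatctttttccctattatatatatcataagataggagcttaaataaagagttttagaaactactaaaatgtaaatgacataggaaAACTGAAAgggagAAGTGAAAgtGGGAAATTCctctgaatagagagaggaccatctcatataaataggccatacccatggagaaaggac
IFNA21, chr9:21166661-21166910, minus strand: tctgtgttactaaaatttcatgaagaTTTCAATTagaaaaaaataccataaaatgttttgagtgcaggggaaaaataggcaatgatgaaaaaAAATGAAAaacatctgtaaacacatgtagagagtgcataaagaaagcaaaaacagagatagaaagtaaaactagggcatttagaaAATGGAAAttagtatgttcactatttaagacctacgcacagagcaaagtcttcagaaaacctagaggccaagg
IFNA8, chr9:21408867-21409116, plus strand: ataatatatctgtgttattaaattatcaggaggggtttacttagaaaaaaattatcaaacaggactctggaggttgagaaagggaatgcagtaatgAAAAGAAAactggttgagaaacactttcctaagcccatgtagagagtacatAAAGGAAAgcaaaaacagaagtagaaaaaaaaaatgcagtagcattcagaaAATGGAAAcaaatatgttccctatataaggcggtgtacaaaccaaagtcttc
The IFNB1 promoter held 2 matches to the IRF form and 1 to the NF-kappaB form, all on the gene's strand between bases -89 and -58 counted from the gene's start. IFNA21 and IFNA8 each held 3 matches to the IRF form and none to the NF-kappaB form. Matches to the IRF form overlapped each other in IFNA1. Of 27305 RefSeq promoters of the same length, 20.6% held at least 1 match to the IRF form, 4.71% held 2 or more, and 3.57% held a match to the NF-kappaB form. These matches are letters in a window and not measured binding. The promoters of the 6 matched alpha genes were 64.8% to 75.7% identical to one another over 15 pairs (median 71.8%), against 47.9% to 56.2% for the 13 pairs that include IFNB1 or IFNE. The alpha genes are close relatives, and the sources used here do not give how reads with several matches were treated, so values of a single alpha gene are uncertain.

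H3K9me3 covered more of the interferon span in the knockouts than in sgControl. Domains covered 16.2% and 14.3% of the span in the SKO libraries, 18.3% and 16.7% in the DKO libraries, and 10.3% and 3.16% in the sgControl libraries. All 4 knockout libraries were above both sgControl libraries, and the sgControl pair were the farthest apart. The means were 15.3% ± 1.31 in SKO, 17.5% ± 1.12 in DKO and 6.71% ± 5.03 in sgControl (SD, n = 2 each), or 61.8, 70.9 and 27.2 kb. The trend, a slope fitted over the number of SUV39H genes targeted, was 5.39 percentage points per gene (p = 0.0222, two-sided exact permutation test, all 90 assignments of the 6 libraries, the smallest p this test can give). The steps were uneven, at 8.55 percentage points from sgControl to SKO and 2.23 from SKO to DKO. With SKO and DKO combined against sgControl, the difference was 9.67 percentage points (exact permutation p = 0.0667, the smallest that 4 against 2 libraries allow). With 100 kb added on either side of the span the trend was 3.48 percentage points (exact permutation p = 0.133). It was 3.42 to 6.46 percentage points when any 1 library was left out. Those runs leave 1 library in a genotype, so no p is given for them. The difference between DKO and SKO was 2.23 percentage points and was not tested, since an exact permutation of 4 libraries gives no p under 0.333.

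**Figure D1:**
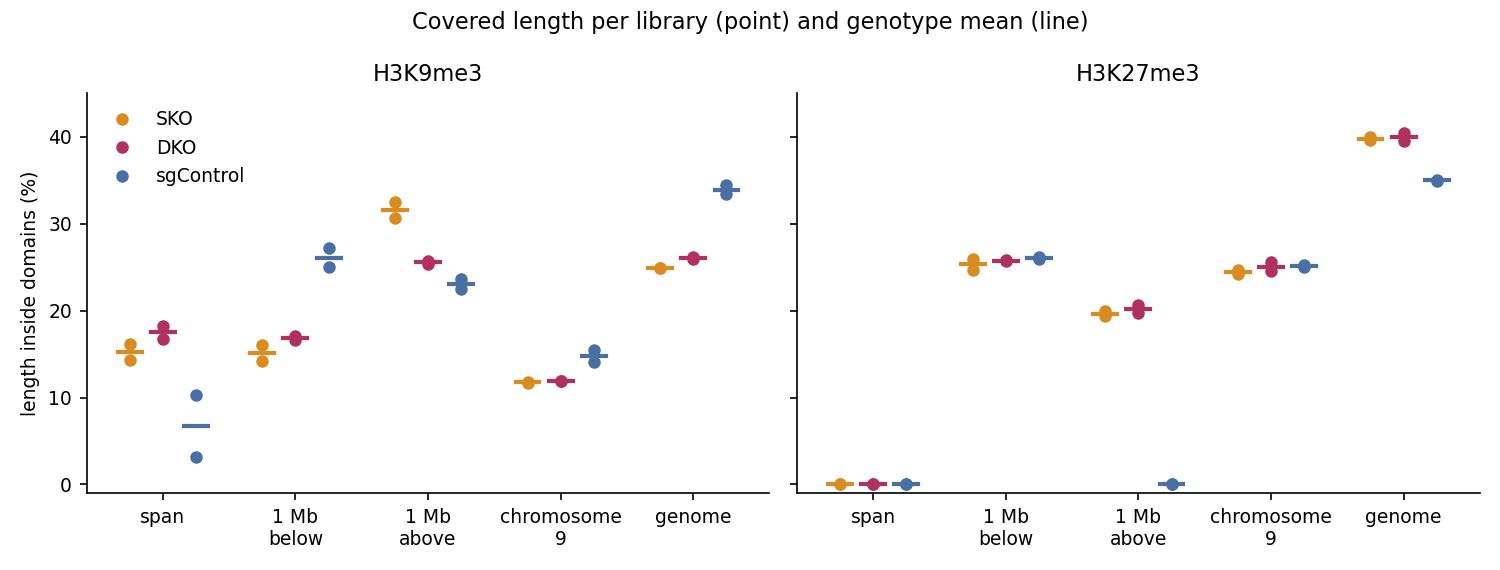
Percentage of length inside called domains of H3K9me3 (left) and H3K27me3 (right) in the interferon span, in 1 Mb below and above it, on chromosome 9 and over the genome. Points are libraries, lines are means of 2 libraries for SKO, DKO and sgControl. In the span the 4 knockout libraries lie at 14.3% to 18.3% for H3K9me3, above sgControl at 3.16% and 10.3%, while over the genome the knockouts lie below sgControl.

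The span went the opposite way from the genome as a whole. Over the genome, H3K9me3 domains covered 24.9% ± 0.051 of the length in SKO, 26.1% ± 0.17 in DKO and 33.9% ± 0.73 in sgControl (SD, n = 2 each). On chromosome 9 the shares were 11.8% ± 0.10 in SKO, 11.9% ± 0.023 in DKO and 14.8% ± 0.96 in sgControl. The direction also differed between the neighbours of the span. In the 1 Mb below it, toward SLC24A2, the covered share was 15.2% ± 1.32 in SKO, 16.9% ± 0.30 in DKO and 26.1% ± 1.53 in sgControl. In the 1 Mb above it, toward MTAP and CDKN2A, the share was 31.6% ± 1.30 in SKO, 25.6% ± 0.28 in DKO and 23.1% ± 0.74 in sgControl. The plot of covered length by library shows these values side by side. The difference between the span and the genome was not tested.

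Reads in the span's domains were also higher in every knockout library than in sgControl. Domains in the span held 1777 and 1796 reads in SKO, 1850 and 1360 in DKO, and 672 and 183 in sgControl. Per 1000000 reads in domains of the same library this was 84.7 and 89.1 in SKO, 89.7 and 82.3 in DKO, and 28.5 and 10.2 in sgControl. The knockout libraries lay close together on this scale, and both sgControl libraries were below them. Reads outside domains are not in the lists, so this ratio moves with how much was called. Each domain that touches the span was counted whole. The domains at IFNB1 in SKO 2, DKO 1 and DKO 2 begin below the span and held 535, 395 and 264 reads. Their counts therefore include reads from outside the span, while the sgControl domains lie wholly inside it.

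Relative to sgControl, called length was gained in pieces of the span, and none that both sgControl libraries shared was lost. Cut into 800 bp windows, the span has 507 windows. Relative to sgControl, 38 windows (7.5%) were gained in SKO, meaning inside a domain in both SKO libraries and in neither sgControl library, against 3.03% of windows over the genome. In DKO, 50 windows (9.86%) were gained relative to sgControl, against 3.02% over the genome. No window of the span was lost in either comparison, while 8.73% of windows over the genome were lost in SKO and 7.85% in DKO. A window can be lost only where both sgControl libraries have a domain, and domains of sgControl 2 covered 3.16% of the span. The lost share of the span could therefore not have reached that of the genome. Between DKO and SKO, 0 windows of the span were gained and 1 was lost, against 2.12% and 1.88% over the genome. A domain called in 1 library of a genotype alone, such as that at IFNA22P in sgControl 1, is not counted by this rule. Neighbouring windows share domains and are not independent.

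Domains of the 6 libraries merged into 6 regions within the span, and 4 of these held a domain in all 4 knockout libraries and in neither sgControl library. They touch IFNB1 (chr9:21066401-21092800), IFNA21 (chr9:21156001-21166400), IFNA6 (chr9:21340801-21359200) and MIR31HG (chr9:21459201-21471200), a non-coding RNA gene that hosts a microRNA. A single region, at IFNW1 (chr9:21120801-21152800), held domains in all 6 libraries. The remaining one, at the pseudogene IFNA22P (chr9:21269601-21281600), was called in sgControl 1 alone.

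**Figure D2:**
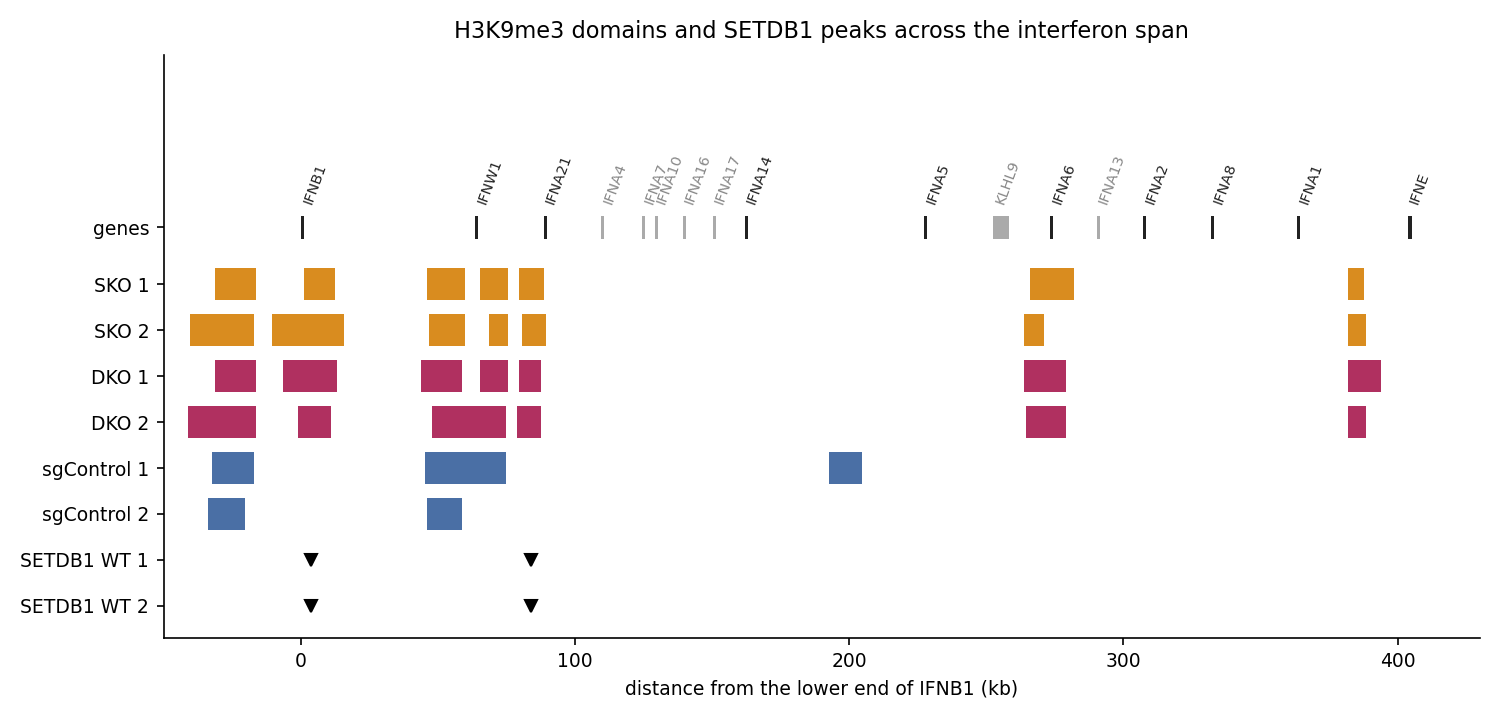
H3K9me3 domains in each library (bars) and SETDB1 peaks in wild-type cells (triangles) across the interferon span, in kb from the lower end of IFNB1. Listed genes are black and the other protein-coding genes of the span grey. Domains at IFNB1, IFNA21, IFNA6 and near IFNE appear in the 4 knockout libraries and in neither sgControl library, and the alpha genes between IFNA21 and IFNA5 and from IFNA13 to IFNA1 lie in stretches where no knockout library has a domain.

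The region at IFNB1 held the most called length of the 4, on average, in SKO and in DKO. Domains covered 11.2 and 26.4 kb of it in the SKO libraries, 20 and 12 kb in the DKO libraries, and 0 kb in both sgControl libraries. Where they ended differed by library, so IFNB1 itself was inside the domain in SKO 2, DKO 1 and DKO 2, while in SKO 1 the domain began 0.459 kb away, on the promoter side of the gene. The 250 bases of the IFNB1 promoter printed above were wholly inside the domain in SKO 2, DKO 1 and DKO 2 and outside it in SKO 1. In sgControl the nearest domain lay 17.1 and 20.3 kb from IFNB1.

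At IFNA21, which encodes an interferon alpha subtype, domains covered 8.8 kb in each SKO library, 8 and 8.8 kb in the DKO libraries, and 0 kb in sgControl. These domains were alike in length in the 4 libraries and stopped close to the 3′ end of the gene. They ended 0.037 kb from IFNA21 in SKO 1 and 0.837 kb from it in both DKO libraries, and in SKO 2 the domain covered 74.6% of the gene. The promoter of IFNA21 was outside the domain in all 6 libraries. In sgControl the nearest domain was 13.6 and 29.6 kb away.

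At IFNA6, a further alpha subtype gene, domains covered 16 and 7.2 kb in the SKO libraries, 15.2 and 14.4 kb in the DKO libraries and 0 kb in both sgControl libraries. IFNA6 was inside the domain in SKO 1, DKO 1 and DKO 2, and lay 2.32 kb from it in SKO 2. No sgControl domain came near, the distances being 68.7 and 169 kb. At MIR31HG, the domain nearest to IFNE, domains covered 5.6 and 6.4 kb in SKO, 12 and 6.4 kb in DKO and 0 kb in sgControl. IFNE itself was outside it, 16.0 and 15.2 kb away in SKO and 9.64 and 15.2 kb away in DKO, against 37.7 kb in both sgControl libraries.

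At IFNW1, the region that all genotypes shared, domains covered 24 and 20 kb in SKO, 25.6 and 27.2 kb in DKO, and 29.6 and 12.8 kb in sgControl. The genotypes overlapped here. IFNW1 lay within the region and was inside a domain in DKO 2 and sgControl 1 alone. In SKO 1, SKO 2 and DKO 1 the region was called as a pair of domains with IFNW1 in the gap, 0.569, 3.77 and 0.569 kb from the nearer one, and in sgControl 2 the only domain ended 4.63 kb from it.

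The density of the domains in the span differed by region, as the plot of read density shows. Set over the median reads per kb of all domains of the same library, the domain at IFNB1 had a density of 1.25 and 0.916 in SKO and 0.925 and 1.27 in DKO. The domain at IFNA21 stood at 1.42 and 1.54 in SKO and at 1.34 and 1.38 in DKO. The domain at IFNA6 stood at 0.808 and 1.07 in SKO and at 0.918 and 0.898 in DKO. The domain at MIR31HG stood at 1.13 and 1.21 in SKO and at 1.12 and 1.30 in DKO. These values lie on both sides of 1, with IFNA21 and MIR31HG above it in all 4 libraries.

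The densest domains of the span were those at IFNW1 in SKO 1, SKO 2 and DKO 1, on the IFNA21 side of the gene. In that region the domains of SKO 1 stood at 1.07 and 1.66 and those of SKO 2 at 1.01 and 2.10, the domains of DKO 1 at 0.893 and 1.58 and the only one of DKO 2 at 1.097, against 0.767 in sgControl 1 and 0.894 in sgControl 2. The lowest knockout domain, in DKO 1, was level with sgControl 2, and the others were above both sgControl domains. Domains were also ranked by the authors' score within their list. The domain at IFNB1 lay at percentile 56.7 and 54.5 in SKO and 53.8 and 52.1 in DKO. The domain at IFNA21 lay at 56.5 and 57.2 in SKO and 51.3 and 49.9 in DKO. That at IFNA6 lay at 20.5 and 4.76 in SKO and 44.2 and 29.1 in DKO. That at MIR31HG lay at 10.4 and 17.1 in SKO and 62.7 and 27.01 in DKO. IFNA6 thus ranked below IFNB1 in each knockout library, and MIR31HG in all but DKO 1. None of these regions held a sgControl domain. At IFNW1 the percentiles were 47.7 and 70.3 in SKO 1, 31.1 and 67.7 in SKO 2, 36.7 and 72.0 in DKO 1 and 72.9 in DKO 2, against 36.3 in sgControl 1 and 3.46 in sgControl 2.

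**Figure D3:**
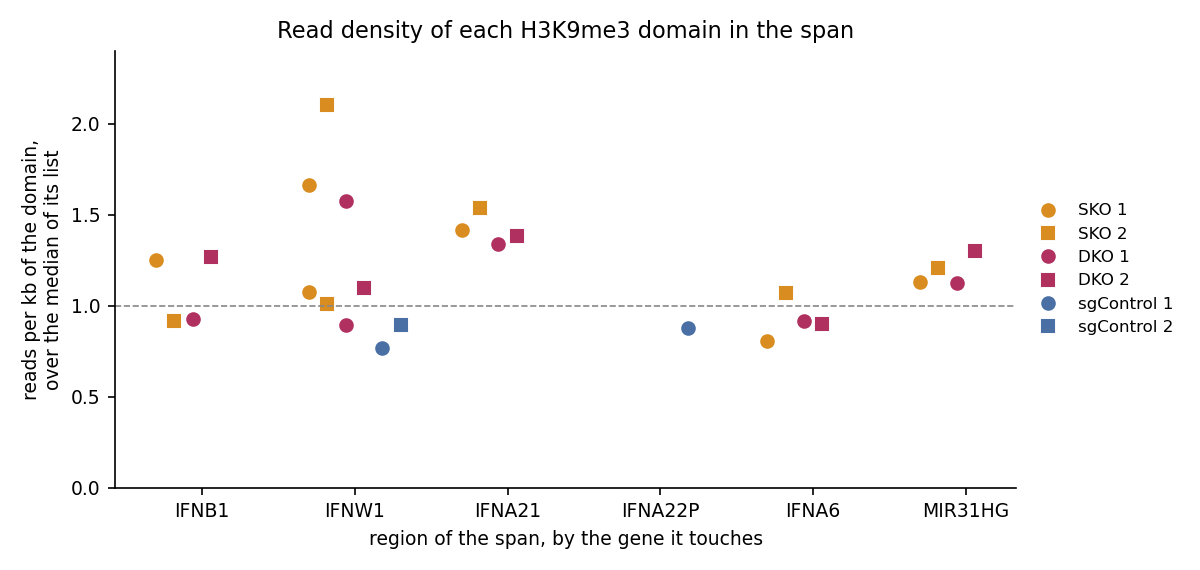
Reads per kb of each H3K9me3 domain in the span, divided by the median over all domains of the same library (dashed line at 1). Circles are replicate 1 and squares replicate 2, with regions in order along the chromosome. The domains at IFNA21 in the 4 knockout libraries lie at 1.34 to 1.54, and the sgControl domains at IFNW1 lie below 1.

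The remaining 6 listed genes, IFNA14, IFNA5, IFNA2, IFNA8, IFNA1 and IFNE, were outside every H3K9me3 domain in all 6 libraries. They fall in 4 of the stretches of the span that had no domain in any library. The longest such stretch, 103 kb, holds IFNA4, IFNA7, IFNA10, IFNA16, IFNA17 and IFNA14, and a stretch of 100 kb holds IFNA13, IFNA2, IFNA8 and IFNA1. The stretch with IFNA5 and KLHL9 is 59.2 kb long. The lists hold no input or copy number, so too few mapped reads and too little mark cannot be told apart in such a stretch.

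The distance from these genes to the nearest domain was shorter in the knockouts for some and not for others. IFNA2 lay 25.1 and 36.3 kb from the nearest domain in SKO and 28.3 kb in both DKO libraries, against 103 and 135 kb in sgControl. IFNA8 lay 49.0 kb away in all 4 knockout libraries and 110 kb away in both sgControl libraries, and IFNA1 17.9 kb away in all 4 knockout libraries against 78.7 kb in sgControl. For IFNA14 the genotypes overlapped, at 73.4 and 72.6 kb in SKO and 74.2 kb in both DKO libraries, against 29.6 and 103 kb in sgControl. They overlapped for IFNA5 too, at 37.9 and 35.5 kb in SKO and 35.5 and 36.3 kb in DKO, against 22.7 and 168 kb in sgControl. In both cases the near sgControl domain was the one at IFNA22P.

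**Figure D4:**
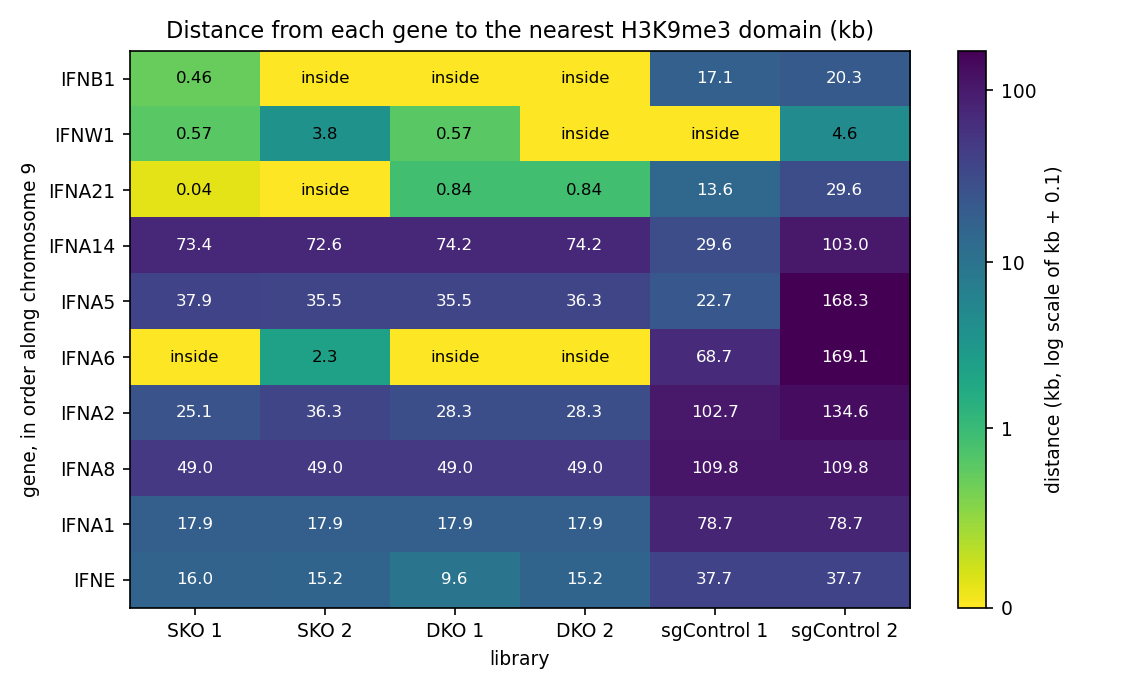
Distance in kb from each of the 10 genes to the nearest H3K9me3 domain in each library, coloured on a log scale of kb plus 0.1, with genes in order along chromosome 9. IFNB1 and IFNA6 are inside a domain or within 2.32 kb of one in the 4 knockout libraries and at least 17.1 kb from one in sgControl, while IFNA14 and IFNA5 show no such separation.

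A gene was called gained or lost when the percentages of its body inside domains did not overlap between genotypes and were at least 25 percentage points apart at their nearest pair. In DKO relative to sgControl, 2 of the 10 genes were called gained for H3K9me3, IFNB1 and IFNA6, each at 100% in both DKO libraries and 0% in both sgControl libraries, against 3.84% of all protein-coding genes. None of the 10 was called lost, against 4.23%, but all 10 stood at 0% in sgControl 2, so this rule could call none lost. With limma on the same percentages over all 19974 genes, neither was called (Benjamini-Hochberg adjusted p = 0.455 for both), no listed gene had an unadjusted p under 0.05, and 3.85% of all genes were called gained. Genes of 1 cluster share domains, and percentages of 0 or 100 for genes this short depend on where a domain edge falls.

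In SKO relative to sgControl, 0 of the 10 genes were called gained for H3K9me3, against 4.11% of all genes. The number lost was 0, against 4.5%, and was fixed in advance, since all 10 genes stood at 0% in sgControl 2. By limma the count gained was also 0, against 4.49% of all genes, with no listed gene at an unadjusted p under 0.05. The 2 SKO libraries split on the genes with domains nearby: IFNB1 was at 0% in SKO 1 and 100% in SKO 2, IFNA6 at 100% in SKO 1 and 0% in SKO 2, and IFNA21 at 0% in SKO 1 and 74.6% in SKO 2. With 2 kb added on either side of each gene, IFNB1 and IFNA21 were called gained in SKO. Between DKO and SKO, 0 of the 10 genes were called in either direction, against 1.46% gained and 1.34% lost over all genes. No listed gene was inside a domain in both SKO libraries, so none could be called lost there.

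No H3K27me3 domain was called anywhere in the span. This held for all 6 libraries, so all 10 genes stood at 0% in SKO, DKO and sgControl. Accordingly 0 of 10 were called gained or lost in any comparison, against 3.37% gained and 3.15% lost over all genes in SKO and 3.82% gained and 3.0% lost in DKO, each relative to sgControl, and 0.726% gained and 0.365% lost in DKO relative to SKO. By limma no listed gene was called either, and none had an unadjusted p under 0.05. Over the genome H3K27me3 domains covered 39.8% ± 0.24 of the length in SKO, 40.0% ± 0.64 in DKO and 35.0% ± 0.12 in sgControl (SD, n = 2 each).

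The nearest H3K27me3 below the span was a domain in all 6 libraries over SLC24A2, which encodes a sodium, potassium and calcium exchanger. It ended 736 kb from IFNB1 in each SKO and DKO library, and 735 and 736 kb from it in sgControl. Above the span the genotypes differed. Domains of the 4 knockout libraries covered the neighbourhood of DMRTA1, a gene of the DMRT transcription factor family, and no sgControl library had one within 1 Mb. In chr9:22354401-22501600, H3K27me3 covered 146 kb in both SKO libraries, 147 and 143 kb in DKO and 0 kb in sgControl. DMRTA1 stood at 100% in all 4 knockout libraries and 0% in both sgControl libraries, and was called gained in SKO and in DKO. The first H3K27me3 domain above the span in sgControl was 1645 and 1650 kb away, and DKO 1 had a short one of 8.8 kb 159 kb from IFNE that no other library had.

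**Figure D5:**
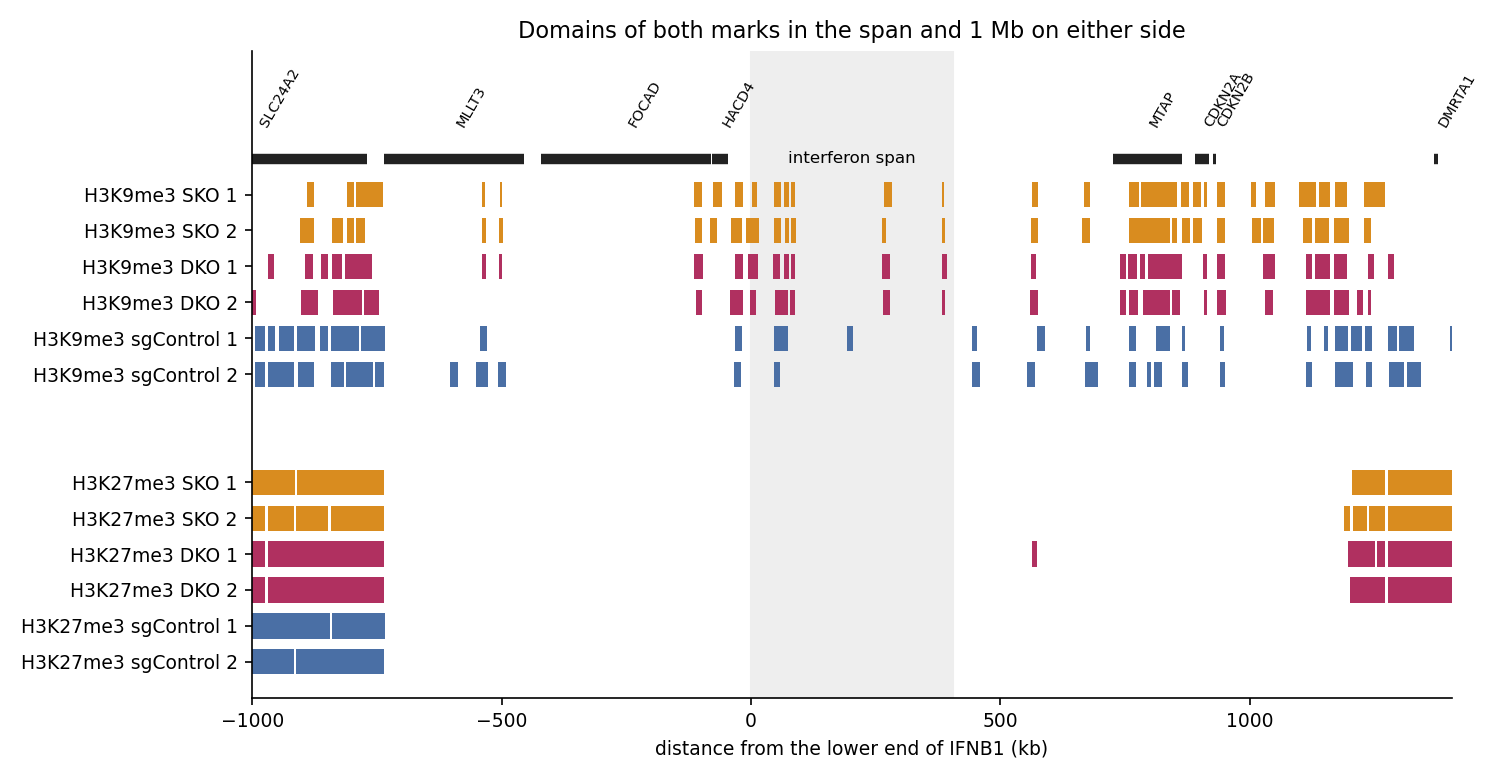
Domains of H3K9me3 (upper 6 rows) and H3K27me3 (lower 6 rows) in the interferon span (grey) and 1 Mb on either side, in kb from the lower end of IFNB1, with protein-coding genes outside the span above. No H3K27me3 domain lies in the span in any library, and domains lie around DMRTA1 at the upper end in the 4 knockout libraries and not in sgControl.

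Several H3K9me3 domains next to the span also separated the genotypes. Within FOCAD, a gene below the span, 16 and 13.6 kb of chr9:20963201-20980000 were inside domains in SKO, and 16.8 and 12 kb in DKO, against 0 kb in sgControl. MTAP, which encodes an enzyme of methionine salvage, had 67.5% ± 0.41 of its body inside domains in SKO and 75.4% ± 2.86 in DKO, against 27.8% ± 1.79 in sgControl (SD, n = 2 each), and was called gained in both. CDKN2A, the tumour suppressor locus for p16 and p14ARF, stood at 56.0% ± 12.3 in SKO and 24.7% ± 2.05 in DKO, against 0% in both sgControl libraries. It was called gained in SKO and not in DKO, where the lower library missed the threshold of 25 percentage points. HACD4, just below IFNB1, stood at 44.3% ± 18.3 in SKO, against 0% in DKO and in sgControl, and was called gained in SKO relative to sgControl and lost in DKO relative to SKO. SLC24A2 went the other way, with 17.1% ± 0.31 in SKO and 39.5% ± 5.16 in DKO, against 72.7% ± 0.71 in sgControl, and was called lost in both. Of the other neighbours, both sgControl libraries had a domain 37.7 kb above IFNE that no knockout library had.

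SETDB1 had 2 peaks in the span in each wild-type library, and both were shared between the libraries. The peak beside IFNB1 lay at chr9:21080580-21081019 in WT 1 and chr9:21080690-21080988 in WT 2, 2.64 and 2.75 kb from the gene, with deposited −log10 p of 6.27 and 6.89. The peak beside IFNA21 lay at chr9:21160664-21161458 in WT 1 and chr9:21160786-21161628 in WT 2, 4.18 and 4.01 kb from the gene, with deposited −log10 p of 6.98 and 5.33. The lists hold no peak with a −log10 p below 5.00, so all 4 values lie near the lower limit of their lists. Both peaks fall inside H3K9me3 domains of all 4 knockout libraries and of neither sgControl library. Over the genome, 1378 of 12304 shared SETDB1 peaks (11.2%) were in that class, 7574 (61.6%) lay in domains of all 6 libraries, and 39 (0.317%) lay in domains of both sgControl libraries and no knockout library. SETDB1 was measured in wild-type cells alone, so whether it was bound there in SKO or DKO was not measured.

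The interferon genes act with receptors, signal carriers and sensors encoded elsewhere, described here from a list of 57 genes of the pathway, 56 of which were found in the annotation. Of these, 6 are alpha genes of the span that are not among the 10, and 50 lie elsewhere. For H3K9me3, the genes called gained in DKO relative to sgControl included IFNG, ZBP1, IL10RB and IFNAR1, and none of these 4 was called in SKO. Over all genes 3.84% were called gained in DKO. A share of the list is not set beside it, since 1 pathway gene is not reported here. None of the 56 was called lost in SKO or in DKO relative to sgControl, against 4.5% and 4.23% of all genes. DKO relative to SKO gave no call for H3K9me3, against 1.46% gained and 1.34% lost over all genes.

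IFNAR1, a chain of the receptor that all type I interferons use, had 24.8% and 22.6% of its body in H3K9me3 domains in SKO and 37.2% and 31.6% in DKO, against 0% in both sgControl libraries. Its neighbour IL10RB, a chain of the interleukin 10 and interferon lambda receptors, stood at 18.3% and 43.3% in SKO and 30.5% and 37.8% in DKO, against 0% in both sgControl libraries. For both genes every knockout library was above both sgControl libraries. ZBP1, a sensor of Z-form nucleic acid, stood at 17.0% and 0% in SKO and 29.9% and 87.8% in DKO, against 0% in both sgControl libraries, so that SKO 2 stood at the sgControl level and the DKO libraries did not. IFNG, which encodes interferon gamma, stood at 100% and 0% in SKO and 100% in both DKO libraries, against 40.9% and 0% in sgControl.

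For H3K27me3, 1 of the 56 was called gained (1.79%, against 3.37% of all genes) and 3 lost (5.36%, against 3.15%) in SKO relative to sgControl. In DKO relative to sgControl 1 was gained and 1 lost (1.79% each, against 3.82% and 3.0%), and in DKO relative to SKO 1 was gained and 0 lost (against 0.726% and 0.365%). With so few calls, these shares are near those of all genes. IFNG, the type II interferon gene on chromosome 12, was called gained in SKO and in DKO, at 100% in all 4 knockout libraries against 0% in both sgControl libraries. IFNL1, IFNL2 and IFNL3, the type III interferon (lambda) genes on chromosome 19, were called lost in SKO, at 0% in both SKO libraries and 100% in both sgControl libraries. In DKO, IFNL3 stood at 0% in both libraries and was called lost. IFNL2 stood at 32.8% and 100% in DKO, against 0% in SKO, and was called gained in DKO relative to SKO. IFNL1 stood at 0% in DKO 2 and 100% in DKO 1 and was not called there. IFNL2 and IFNL3 are near-identical copies, so their single values are uncertain.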

How the data were processed

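Per the labels' protocols, formaldehyde-fixed chromatin was sonicated, Drosophila S2 chromatin was added as a spike-in and a Nextera XT kit was used for the libraries. The submitters' processing notes name the builds hg38 and dm6 and the tools SICER, deepTools 3.5.6, Trim Galore 0.6.10 and FastQC 0.12.1. The sources used here do not give the aligner, the read filters or the treatment of reads with several matches. The authors deposited 1 list of epic2 domains per library for H3K9me3 and H3K27me3, with a read count and a score for each domain, per the file headers. The count is not scaled for depth or spike-in, and the score served only for ranks among domains of 1 list. The deposited SETDB1 lists give a −log10 p per peak. The 4 inputs were not analysed here.

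Domains were placed on RefSeq gene bodies of GRCh38.p14 with Python 3.11.15 and numpy 2.4.6, and the share of each gene, window or region inside domains was taken per library. No spike-in factor is in the lists, so they give the place of domains and not the total amount of mark. Covered length of the span was tested by exact permutation, and gene percentages with limma 3.58.1 (R 4.3.3) as an alternative. The gene call rule and limma were tested on simulated data, and the permutation test was not. Groups came from the sample titles. The 10 genes, the pathway list and the tests were chosen with earlier results of these data known. All 10 genes, all genes of the span and its flanks that were called or carry a domain described here, and the pathway genes called in any comparison are named, except 1 pathway gene that is not reported here. Distances between genes and domains run from the gene's nearer end.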

Additional observations from a re-analysis of the deposited data

How the results depend on the processing

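Of 199 values recomputed under the alternatives, 22 changed: 21 of 98 for H3K9me3, 1 of 3 for SETDB1 and 0 of 98 for H3K27me3, whose values stay at 0 because the span holds no domain. For H3K9me3, the trend of covered share over the 6 libraries was 5.39 percentage points per SUV39H gene targeted, 9.67 (exact permutation p = 0.0667) for both knockouts together against sgControl, 3.48 (p = 0.133, exact permutation test) with the span widened by 100 kb, and 3.42 to 6.46 with 1 library left out. SKO minus sgControl was 8.55 percentage points, 15.3 with all lists trimmed by score to the same covered length, where no sgControl domain was left in the span, and 5.00 to 12.1 with 1 library left out. DKO minus sgControl was 10.8, 17.5 at the same covered length, 6.96 with the widened span and 7.23 to 14.3 with 1 library left out. DKO minus SKO was 2.23, turned to -1.26 with the widened span, and was 1.31 to 3.16 with 1 library left out. The cause of these shifts was not tested.

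The number of the 10 genes called gained for H3K9me3 in DKO relative to sgControl was 2. It was 1 (IFNB1) with the upper 50% of domains by score, 0 by limma and 0 by limma with the replicate block (adjusted p = 0.611 for IFNB1 and IFNA6, against 0.455 without the block), and 2 with any 1 library left out. The count gained in SKO was 0, 2 with genes widened by 2 kb, and 0 to 2 with 1 library left out. IFNB1 and IFNA21 were called without SKO 1, and IFNA6 without SKO 2. The count lost in SKO was 0 to 1, with IFNW1 called without sgControl 2, and the counts in DKO relative to SKO were 0 to 1 gained and 0 to 1 lost. The H3K27me3 values of the span and its genes were 0 under every alternative run. The count of SETDB1 peaks in the span, 2, was 0 at a −log10 p of at least 10. Same-numbered libraries did not deviate together (correlations of -0.0145 to 0.0503 over 19974 genes). No pairing by number was seen, which does not show that none was made.

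With 2 libraries per genotype and no input, spike-in factor or signal outside domains, a stretch without a call cannot be told apart from one just under the calling threshold, and edges are known only to 800 bp.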
